A study of Mus musculus with 20 samples.

Results

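The genes described here were 42 members of the Wnt signalling system, taken from the 55573 genes of an RNA-seq count table of mouse embryoid body (EB) cultures. They comprised 17 Wnt ligands, 12 receptors, 6 secreted inhibitors, 5 target genes, and the R-spondin ligand Rspo3 with its receptor Lgr5. The choice followed gene family and role, with no threshold on these values. Each symbol matched 1 gene identifier, and each member had more than 3 counts in at least 1 of the 20 libraries.

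The libraries came from 4 induced pluripotent stem cell (iPSC) lines, each a clone picked after embryonic fibroblasts had received Oct4, Sox2, Klf4 and c-Myc by viral transduction. WT#1-4 and WT#20D-17 are labelled wild type, and Nox4-/- #5-8 and Nox4-/- #5-23 came from Nox4 knockout fibroblasts. Every line was kept on fibroblast feeder cells with LIF, aggregated in hanging drops without LIF and then plated, and was sampled on days 0, 3, 5, 7 and 14. Each line gave 1 library on each day. For the last library the titles give day 14, while a protocol text lists 10 days. The study names only WT#1-4 as its wild type line.

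Wnt proteins are secreted, lipid-modified ligands that bind Frizzled receptors together with Lrp5 or Lrp6. In the canonical branch this binding stops the destruction of β-catenin, which then enters the nucleus and acts with TCF and LEF factors on target genes, several of which, such as Axin2, Nkd1 and Dkk1, dampen the signal in return. In the embryo and in EBs the pathway is known for its part in forming the primitive streak, mesoderm and endoderm, and in pluripotent cells for sustaining self-renewal.

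The total count per library lay between 20294935 and 27707994. Expression is given as counts per 1000000 scaled with TMM factors (CPM), and 3 counts, taken as the floor, corresponded to 0.109 to 0.157 CPM. Nox4 had at most 2 counts in the Nox4-/- libraries, 0.149 to 0.874 CPM in WT#1-4 and 2.62 to 9.01 CPM in WT#20D-17. The libraries of WT#20D-17 stood apart from the other 15, so results are given for each line, and results that rest on WT#20D-17 also without it. Pluripotency, streak, endoderm, fibroblast and neural markers moved with this split, though not every marker of a list did. Nanog was at 8.4 to 383 CPM in WT#20D-17 and at 0.038 to 1.03 CPM in the other 15 libraries, whereas Pou5f1 (Oct4, also supplied by the virus) was at 1278 to 5760 CPM in the other 3 lines and at 21.3 to 1136 CPM in WT#20D-17. Zfp42 and Esrrb were likewise at 6.53 to 41.6 and 4.78 to 123 CPM in WT#20D-17, while the other 15 libraries held 0 counts of Zfp42 and at most 5 of Esrrb. Fgf4 went the other way, at 58.4 to 192 CPM in the other 3 lines and 2.26 to 93.4 CPM in WT#20D-17. Sox2, also supplied by the virus, was at 6.98 to 195 CPM in WT#20D-17, 1.04 to 33.6 in WT#1-4 and 83.3 to 202 in the Nox4-/- lines. The 6 neural markers summed to 37.8 to 105 CPM in WT#20D-17, 320 to 542 in WT#1-4 and 109 to 185 in the Nox4-/- lines. Of these, Pax6, Sox1 and Map2 were lower in WT#20D-17 than in WT#1-4, and the ranges of Tubb3 and Neurod1 overlapped. Nes was higher, at 28.7 to 86.3 against 11.4 to 20.2 CPM. Map2 was at 148 to 443 CPM in WT#1-4 and at most 48 CPM in the Nox4-/- lines. Summed over 6 extraembryonic endoderm markers, CPM was 133 to 1788 in WT#20D-17 and 0.152 to 4.82 in the other libraries. The sum of 6 fibroblast markers was 22.9 to 2812 CPM in WT#20D-17, 40.2 to 106 in WT#1-4 and 2.2 to 17.3 in the Nox4-/- lines. Of these, Thy1 went from 14.1 on day 0 to 2.57 CPM on day 14 in WT#20D-17 and from 4.48 to 35.4 in WT#1-4. The sum of 6 primitive streak markers reached 203 CPM in WT#20D-17 on day 3, against at most 17.5 in the other lines. Of these, Tbx6 reached only 3.57 CPM in WT#20D-17, against 10.3 in WT#1-4. The sums of 6 endothelium and blood markers overlapped, at 17.9 to 132 CPM in WT#20D-17 and 15.2 to 116 in the other lines. Of these, Kdr reached 55.9 CPM in WT#20D-17 against 2.88 in the other lines, and Pecam1 20.7 against 112. In such bulk samples, fewer cells of a type and less RNA per cell cannot be told apart, and the part of these cell types in the results below was not tested.

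The promoters of 3 members are shown because these genes follow the pattern on which the results turn, being high in WT#20D-17. Each line holds the 250 bases upstream of the RefSeq transcript start (GRCm38.p6), in the gene's own direction. Capitals mark CTTTGA, the core of the TCF/LEF motif, or TCAAAG, its reverse complement. Sp5 is at chr2:70474673-70474922 on the plus strand, Axin2 at chr11:108920099-108920348 on the plus strand and Wnt11 at chr7:98834862-98835111 on the plus strand.
Sp5: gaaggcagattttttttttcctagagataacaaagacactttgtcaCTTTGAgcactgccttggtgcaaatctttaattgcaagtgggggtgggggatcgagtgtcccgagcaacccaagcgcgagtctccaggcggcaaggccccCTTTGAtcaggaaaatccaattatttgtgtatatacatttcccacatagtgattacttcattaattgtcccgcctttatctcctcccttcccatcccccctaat
Axin2: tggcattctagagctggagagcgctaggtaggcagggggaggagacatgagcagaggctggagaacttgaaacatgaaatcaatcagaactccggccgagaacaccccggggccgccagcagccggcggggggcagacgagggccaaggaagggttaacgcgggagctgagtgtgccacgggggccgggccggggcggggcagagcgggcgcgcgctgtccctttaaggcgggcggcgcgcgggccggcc
Wnt11: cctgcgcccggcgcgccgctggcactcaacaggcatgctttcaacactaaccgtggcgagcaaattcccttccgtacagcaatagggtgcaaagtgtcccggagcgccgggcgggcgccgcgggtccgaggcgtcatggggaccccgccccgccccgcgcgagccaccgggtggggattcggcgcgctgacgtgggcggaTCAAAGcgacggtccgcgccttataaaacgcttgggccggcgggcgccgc

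The Sp5 window holds 2 matches, which begin at positions -204 and -104 from the start. The window of Dkk1 also holds 2, at -174 and -117, and that of Wnt11 holds 1, at -50. None of these letters lie in the Axin2 window. Promoter windows of 250 bases before to 50 after the start were at hand for 28 members, of which 6 (21.4%), Dkk1, Fzd1, Lef1, Sp5, Wnt11 and Wnt5b, held a match on either strand, against 18.2% of 27025 genes. Windows with 2 or more matches were found in 3 members, Dkk1, Lef1 and Sp5, and made up 1.73% of all windows. A match describes the letters and does not show a bound site.

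The WT#20D-17 cultures expressed most of the Wnt system, and the other 3 lines expressed its receptors but few of its ligands, inhibitors and targets. A level of 5 CPM was reached in at least 1 library by 35 members in WT#20D-17, 14 in WT#1-4, 14 in Nox4-/- #5-8 and 16 in Nox4-/- #5-23. Among the 12 receptors the numbers were 11, 9, 10 and 11 in that order. Among the 17 ligands they were 11, 4, 3 and 3, and among the 5 targets 5, 0, 0 and 1. Only Sfrp1 among the 6 inhibitors reached 5 CPM in the lines other than WT#20D-17, where all 6 did.

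**Figure D1:**
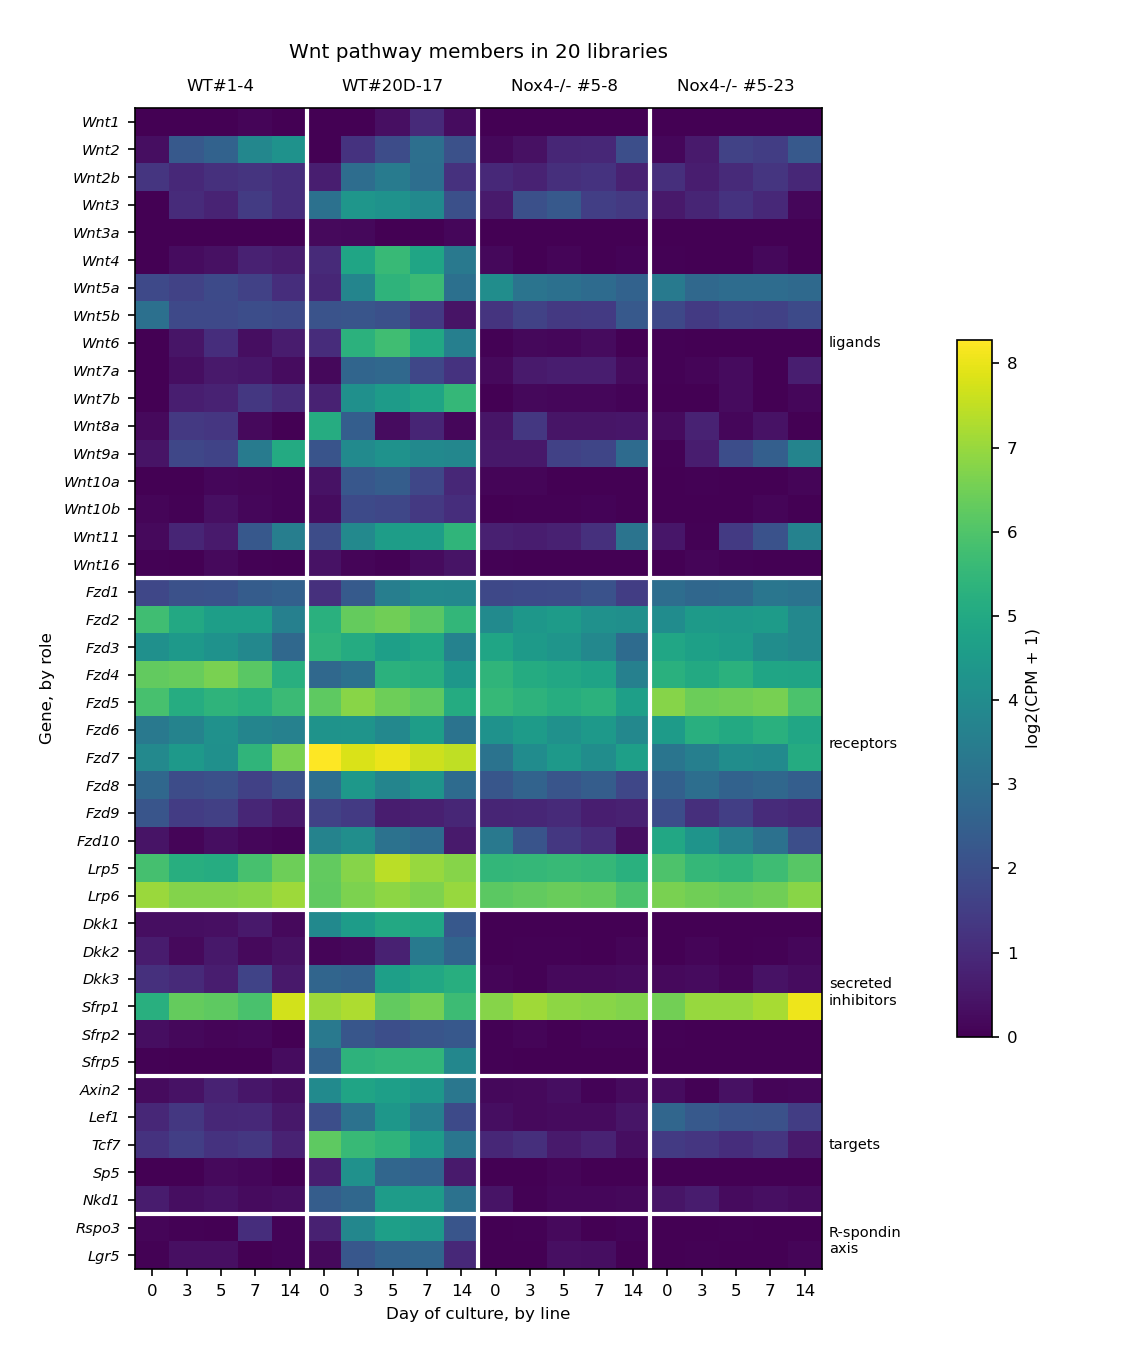
Heat map of the 42 members (rows, grouped by role) in the 20 libraries (columns, by line and day), with colour showing log2(CPM + 1). The receptor rows are filled in all 4 lines, while most ligand, inhibitor and target rows are filled only in the 5 columns of WT#20D-17, where 35 members reach 5 CPM.

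In a fit with line and day as terms over all 20 libraries, with edgeR's quasi-likelihood test at an FDR under 0.01, 28 of 39 members tested differed between the 2 wild type lines, 27 of them higher in WT#20D-17 and 1, Fzd4, lower. The background was 39.7% of 17827 genes, with 20.4% higher and 19.4% lower in WT#20D-17. Because 12 members passed the expression filter only through WT#20D-17, that count had to be high and nothing is read from it. Without the filter the count was also 28, of all 42 members (66.7%), against 21.8% of all genes, with 27 higher (background 12.1%) and 1 lower (9.65%). The median log2 difference was 3.28 over the 42 members and 0.02 over all genes. The days of a line were the repeats here, so the test compares these lines as cultured, with n = 5 libraries each, and not lines in general. For 11 members, Wnt4, Wnt10a, Fzd7, Dkk1, Dkk3, Sfrp2, Sfrp5, Axin2, Tcf7, Sp5 and Nkd1, the 5 libraries of WT#20D-17 lay above all 15 others, or 26.2% of the 42, against 6.55% of the 33860 genes with a nonzero count. Among the 27 members that passed the filter in those 15 libraries alone there were 3, Fzd7, Dkk3 and Tcf7 (11.1%), against 6.88% of genes. Below all 15 others there were 0 members of the 42 (background 4.19%) and 0 of the 27 (8.25%).

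Axin2, a scaffold of the β-catenin destruction complex and a widely used readout of canonical signalling, was at 14.4, 27.6, 24.6, 19.8 and 8.71 CPM in WT#20D-17 on days 0, 3, 5, 7 and 14. The counting interval on day 3 was 25.6 to 29.9 CPM (95% Wilson interval, counting error only). In WT#1-4 it was 0.19, 0.318, 0.746, 0.417 and 0.248 CPM on the same days. The 5 libraries of Nox4-/- #5-8 held 0.0482 to 0.229 CPM and those of Nox4-/- #5-23 held 0.0458 to 0.302 CPM. The lowest WT#20D-17 library was therefore above the highest of the others. Since Axin2 passed the filter only through WT#20D-17, its test is given from the fit without a filter, where the wild type lines differed by 5.65 ± 0.42 log2 units (SE; FDR 9.14e-11).

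Sp5, a transcription factor gene of the primitive streak and a direct Wnt target, was at 17.4 CPM in WT#20D-17 on day 3, after 0.615 on day 0, and at 5.58, 5.19 and 0.525 CPM afterwards. Its only counts in WT#1-4 were on days 5 and 7 (0.149 and 0.114 CPM), and the 10 Nox4-/- libraries held 2 counts in all. The peak coincided with that of T (Brachyury), which was at 43.8 CPM on day 3 in this line and at most 0.82 CPM in the other lines. Nkd1, an inhibitor of Dishevelled, was at 4.39, 5.81, 22.8, 22.4 and 7.77 CPM in WT#20D-17 and at most 0.55 CPM elsewhere. In the fit without a filter, Sp5 and Nkd1 were higher than in WT#1-4 by 6.49 ± 0.74 and 5.30 ± 0.56 log2 units (SE), with FDRs of 5.26e-07 and 4.33e-08.

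The nuclear partners of β-catenin behaved differently from each other. Tcf7 was highest on day 0 in WT#20D-17, at 73.4 CPM, and was at 46.6, 41.0, 22.6 and 8.5 CPM on the later days. It was at 0.744 to 1.87 CPM in WT#1-4, 0.232 to 1.17 in Nox4-/- #5-8 and 0.51 to 1.64 in Nox4-/- #5-23. Lef1 was highest on day 5 in WT#20D-17, at 2.99, 7.75, 20.0, 11 and 2.62 CPM. It was the only target to reach 5 CPM outside this line, at 5.58, 3.99, 3.25, 3.11 and 1.86 CPM in Nox4-/- #5-23, while WT#1-4 held 0.446 to 1.51 CPM and Nox4-/- #5-8 held 0.168 to 0.371 CPM. Lef1 therefore separated the 2 Nox4-/- lines as well as the 2 wild type lines.

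**Figure D2:**
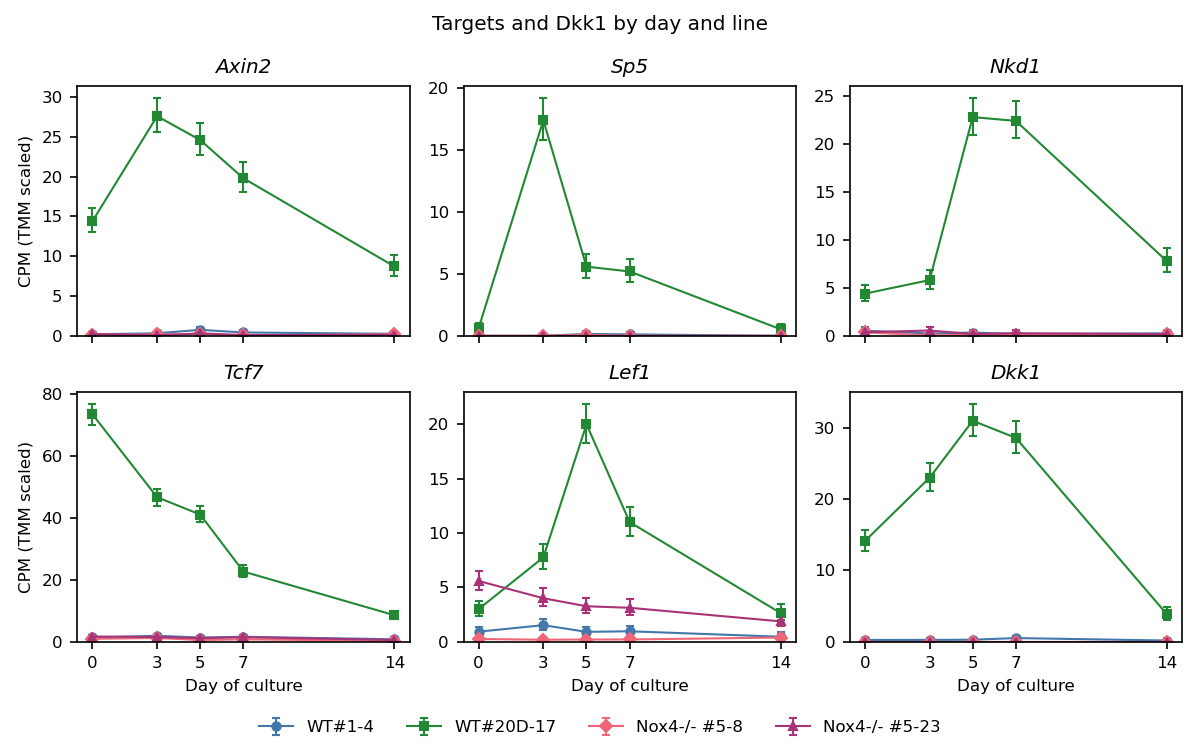
CPM (vertical axes, linear) of 5 target genes and Dkk1 by day of culture, with 1 point per library and bars for the 95% Wilson counting interval. WT#20D-17 lies above the other lines on each day in every panel except that of Lef1, where Nox4-/- #5-23 is higher on day 0 (5.58 against 2.99 CPM).

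Among the secreted inhibitors, Dkk1, which binds Lrp5 and Lrp6 and removes them from signalling, was at 14.1, 23.0, 31.0, 28.6 and 3.83 CPM in WT#20D-17. WT#1-4 held 0.228, 0.238, 0.261, 0.493 and 0.149 CPM, from 3 to 13 counts per library. Not a single count was found in the 10 Nox4-/- libraries, so the mean of WT#20D-17 was at least 161-fold higher and that of WT#1-4 at least 2.19-fold higher than the floor of 3 counts in those libraries. Sfrp5, a soluble Frizzled-like protein that captures Wnt ligands, reached 39.8, 42.6 and 42.5 CPM on days 3, 5 and 7 in WT#20D-17, with 5.08 on day 0 and 13.1 on day 14. It had 5 counts in all in WT#1-4 and 1 count in the Nox4-/- lines.

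Dkk3, a divergent member of the Dickkopf family, was at 5.45 and 5.0 CPM on days 0 and 3 in WT#20D-17 and at 24.7, 30.1 and 35.2 CPM on days 5, 7 and 14. It was at 1.22, 0.993, 0.597, 2.16 and 0.496 CPM in WT#1-4. The Nox4-/- libraries held 0.042 to 0.311 CPM, below every wild type library. Dkk2 appeared late, at 9.54 and 5.3 CPM on days 7 and 14 in WT#20D-17 after at most 0.697 CPM before, with 0.152 to 0.532 CPM in WT#1-4 and at most 3 counts in any Nox4-/- library. Sfrp2 was at 9.14 CPM on day 0 and 3.01 to 3.88 CPM later in WT#20D-17, with at most 0.228 CPM in WT#1-4 and at most 2 counts in a Nox4-/- library.

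Sfrp1, another Frizzled-like decoy, was the exception, since it was high in all lines with overlapping ranges. It ranged from 36.0 to 208 CPM in WT#1-4, 49.5 to 152 in WT#20D-17, 103 to 136 in Nox4-/- #5-8 and 89.5 to 267 in Nox4-/- #5-23. The log2 difference between the wild type lines was 0.30 ± 0.38 (SE; FDR 0.533). Per kilobase of exon, its mean level (20.8 to 34.5 CPM) exceeded that of each receptor in WT#1-4 and in both Nox4-/- lines, but not that of Fzd7 in WT#20D-17 (51.7).

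Most ligands were highest in WT#20D-17. Wnt3, which induces the primitive streak, was at 7.54, 19.3, 17.6, 14.1 and 3.04 CPM in WT#20D-17. It was at 0 to 1.71 CPM in WT#1-4, at 0.519, 3.06, 4.01, 1.93 and 1.58 CPM in Nox4-/- #5-8 and at 0.109 to 1.32 CPM in Nox4-/- #5-23. Wnt8a was highest on day 0 in WT#20D-17, at 33.9 CPM, and was 4.57 on day 3 and at most 0.799 CPM after that. In the other lines it was at 0 to 1.59 CPM, and the highest library of each was that of day 3. Its difference between the wild type lines (2.33 ± 1.32 log2 units, SE) did not pass the threshold (FDR 0.152).

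Wnt6, Wnt4 and Wnt7b were among the ligands with the largest differences between the wild type lines. Wnt6, which acts in extraembryonic endoderm and epithelia, went from 1.07 CPM on day 0 to 39.0, 52.1, 30.5 and 11 CPM. Wnt4, known from kidney and gonad development, went from 0.984 to 28, 47.1, 28.1 and 9.08 CPM. Wnt7b, a ligand of lung and placenta development, was instead highest on day 14, going from 0.738 to 16.9, 22.3, 27.8 and 45.1 CPM. In WT#1-4 these genes held at most 1.12, 0.683 and 1.52 CPM, respectively, and no Nox4-/- library held more than 0.193, 0.133 and 0.189 CPM. Without a filter, the log2 differences between the wild type lines were 5.74 ± 0.55, 5.83 ± 0.71 and 4.84 ± 0.45 (SE), with FDRs of 8.45e-09, 4.26e-07 and 5.4e-09. Over the 5 libraries, Wnt4 gave 2561 counts in WT#20D-17 and 42 in WT#1-4, against 10 in the 10 Nox4-/- libraries.

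Wnt2b (highest value 9.81 CPM), Wnt7a (6.02 CPM), Wnt10a (4.49 CPM) and Wnt10b (2.63 CPM) passed this test too, each with its highest library on day 3 or 5 of WT#20D-17. In the other lines, Wnt2b was at 0.596 to 1.44 CPM and Wnt7a at 0 to 0.62 CPM. Wnt10a had at most 3 counts in each of the 15 other libraries, and Wnt10b was at 0.0397 to 0.261 CPM in WT#1-4, with at most 2 counts in each Nox4-/- library. Wnt16 and Wnt3a, at most 0.367 and 0.164 CPM in WT#20D-17, were near the floor throughout.

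Wnt1, a ligand of the midbrain and hindbrain and a gene that the study used as an ectoderm marker, was barely detected. It had 0 counts in all 10 Nox4-/- libraries, which allows up to 0.144 CPM in the shallowest of them, and 2 counts in WT#1-4, on day 7. In WT#20D-17 it was at 0, 0, 0.262, 0.977 and 0.21 CPM.

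Wnt5a, the main ligand of the β-catenin-independent branch, was present in every library, and both Nox4-/- lines exceeded WT#1-4. It was at 2.58, 2.07, 2.65, 2.05 and 1.14 CPM in WT#1-4. Nox4-/- #5-8 held 15.7, 8.18, 7.34, 6.41 and 5.01 CPM and Nox4-/- #5-23 held 9.37, 5.96, 6.58, 6.62 and 6.05 CPM, so these 10 libraries did not overlap with WT#1-4. WT#20D-17 spanned both, at 0.861 CPM on day 0, 12.7 on day 3, 40.5 on day 5, 48.9 on day 7 and 7.24 on day 14. Its relative Wnt5b was at similar levels in all lines, 0.367 to 7.33 CPM, with a difference of -0.58 ± 0.48 log2 units (SE; FDR 0.333) between the wild type lines.

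Most receptors were expressed in all 4 lines. Lrp6 lay between 60.5 and 134 CPM in all 20 libraries and did not pass the test between wild type lines (-0.23 ± 0.15 log2 units, SE; FDR 0.217) or between Nox4-/- lines (0.34 ± 0.15; FDR 0.197). Lrp5 was at 33.7 to 86.6 CPM in WT#1-4, 77.4 to 169 in WT#20D-17, 37.2 to 46.9 in Nox4-/- #5-8 and 41.4 to 69.0 in Nox4-/- #5-23. Fzd5 was at 24.2 to 111 CPM and Fzd6 at 7.87 to 37.1 CPM over all libraries, and neither passed the threshold between the wild type lines. Fzd2 was at 37 to 88.7 CPM in WT#20D-17, 11.2 to 52.7 in WT#1-4 and 13.5 to 22.3 in the Nox4-/- lines. Fzd8 was at 6.46 to 20.2 CPM in WT#20D-17 and 2.01 to 6.87 CPM in the other lines, and Fzd1 at 1.23 to 13.8 CPM and 1.81 to 8.57 CPM. Fzd9 was at 0.496 to 3.49 CPM over all libraries.

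Fzd7, a Frizzled tied to self-renewal of pluripotent cells, was the only receptor for which all WT#20D-17 libraries lay above the 15 others. It was at 309, 222, 261, 201 and 177 CPM there. In WT#1-4 it was at 13.9, 21.1, 16.7, 41.6 and 96.3 CPM, in Nox4-/- #5-8 at 7.98, 15.2, 20.6, 15.6 and 24.4 CPM, and in Nox4-/- #5-23 at 8.33, 10.8, 15.7, 14.6 and 33.0 CPM. The courses ran in opposite directions, with the highest library on day 0 in WT#20D-17 and on day 14 in each of the other 3 lines. The difference between the wild type lines was 2.99 ± 0.40 log2 units (SE; FDR 1.12e-05). Per kilobase of exon, Fzd7 led the 12 receptors in WT#20D-17 (51.7 CPM per kilobase, followed by Fzd2 with 17.4), whereas Fzd4 led in WT#1-4 (10.8), Lrp6 in Nox4-/- #5-8 (5.43, next to Fzd5 with 5.30) and Fzd5 in Nox4-/- #5-23 (12.6).

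Fzd4, the receptor of Norrin as well as of Wnts, was the only member that passed the test as lower in WT#20D-17. It was at 6.02, 7.49, 37.8, 35.6 and 19.6 CPM there and at 76.5, 81.5, 97, 70.5 and 35.9 CPM in WT#1-4 (-1.82 ± 0.42 log2 units, SE; FDR 0.00177). Nox4-/- #5-8 held 42, 33.1, 30.3, 26.8 and 11.2 CPM and Nox4-/- #5-23 held 36.9, 31.3, 38.1, 28 and 27.3 CPM. The wild type lines overlapped, since day 14 of WT#1-4 was below day 5 of WT#20D-17.

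Rspo3, which amplifies Wnt signals by sparing Frizzled receptors from degradation, was at 0.697, 13.1, 24.2, 21 and 3.57 CPM in WT#20D-17. Outside this line it exceeded 0.153 CPM in 1 library, WT#1-4 on day 7, with 1.1 CPM. Its receptor Lgr5, a stem cell marker and Wnt target, was at 0.164, 3.79, 5.19, 5.55 and 0.945 CPM in WT#20D-17 and at 0 to 0.278 CPM in the others. Both were higher in WT#20D-17 than in WT#1-4 in the fit without a filter, by 5.75 ± 0.74 and 4.39 ± 0.78 log2 units (SE), with FDRs of 8.84e-07 and 8.09e-05.

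Within WT#20D-17 the highest library fell on different days, with roles mixed. Tcf7, Fzd7, Wnt8a, Sfrp2, Fzd3, Fzd9 and Wnt3a were highest on day 0, and Wnt3, Sp5, Axin2, Fzd10, Fzd5, Fzd8, Sfrp1, Wnt5b and Wnt10b on day 3. Day 5 held the highest library of 14 members, among them Wnt4, Wnt6, Dkk1, Sfrp5, Lef1, Nkd1 and Rspo3, while 7 peaked on day 7 and 5 on day 14. With 1 library per day this order has no replicate check.

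Between the 2 lines of the Nox4-/- genotype, 3 of 39 members tested passed (7.69%), all higher in Nox4-/- #5-23, against a background of 3.63% of genes (2.05% higher and 1.58% lower). Without the filter there were also 3, of 42 (7.14%), against 2% (0.987% higher and 1.01% lower). Many of the other members were at or near the floor in both lines, 11 of them with at most 3 counts in every library, so that little could be called there. Lef1 differed by 3.86 ± 0.54 (FDR 0.000327), Fzd10 by 2.62 ± 0.39 (FDR 0.00057) and Fzd5 by 1.27 ± 0.22 log2 units (SE; FDR 0.00195). Fzd5 was at 109, 83.6, 87.4, 94.0 and 60.4 CPM in Nox4-/- #5-23 and at 46.0, 39.7, 34.7, 38.7 and 24.2 CPM in Nox4-/- #5-8, without overlap. Fzd10 lies on chromosome 5, over whose 748 genes the median log2 difference between these lines was 0.56, and so do Fzd1 (1.44 ± 0.41, FDR 0.0362) and Fzd9 (0.88 ± 0.36, FDR 0.164). Likewise, chromosome 14, which carries Wnt5a and Fzd3, had a median difference of 0.47 over 414 genes between WT#20D-17 and WT#1-4. Chromosome 1, which carries Wnt6, Wnt10a, Fzd5 and Fzd7, had the next largest, 0.24 over 679 genes. What these chromosome-wide shifts add to those genes was not tested.

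**Figure D3:**
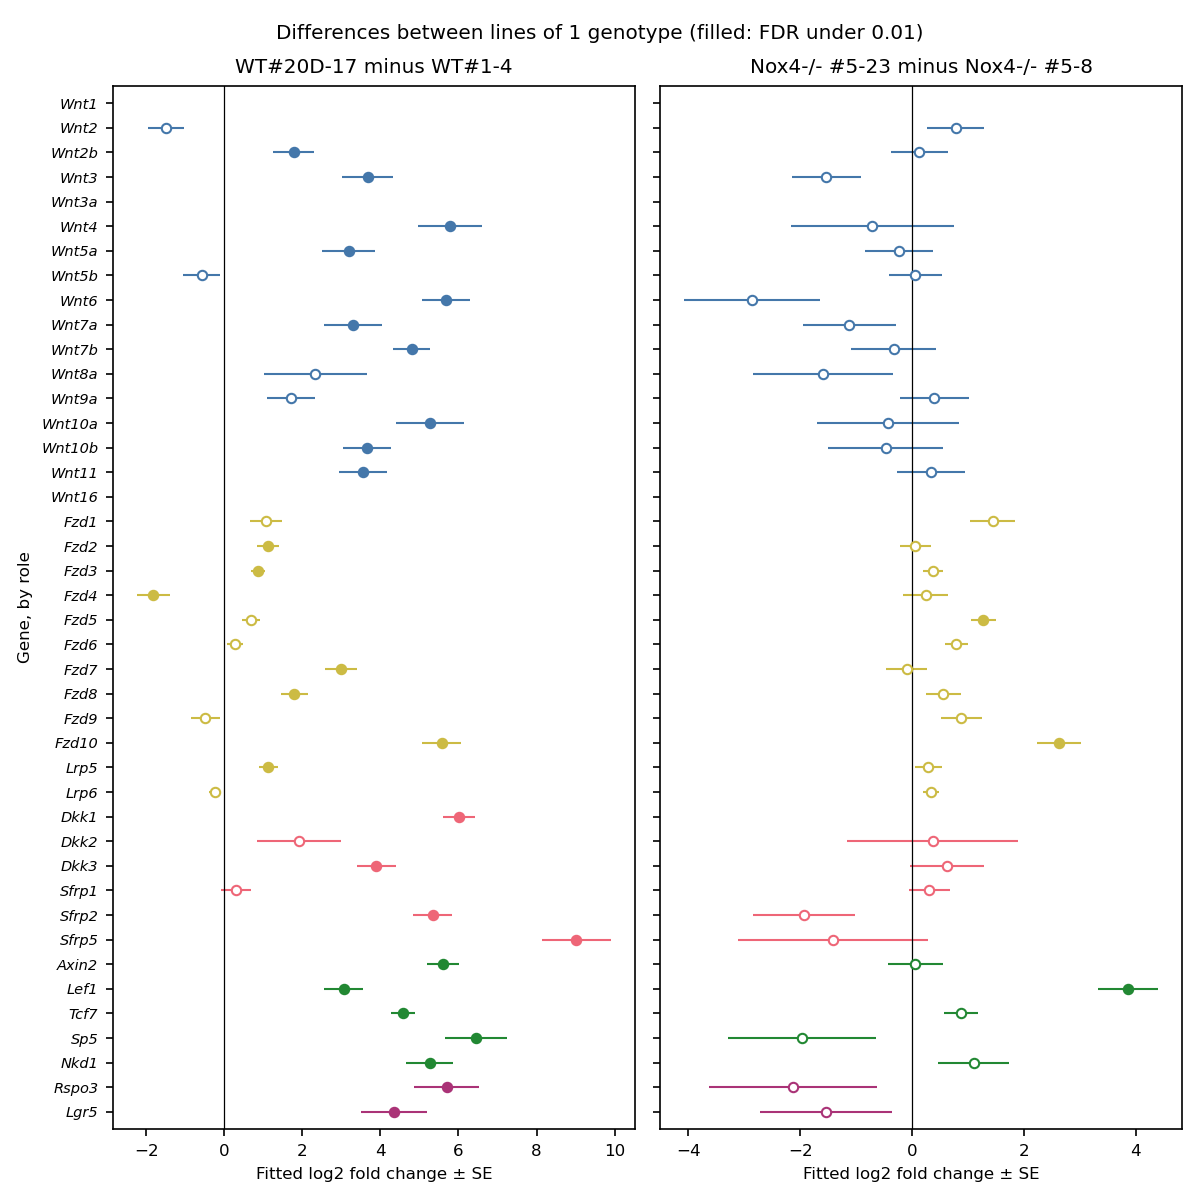
Fitted log2 fold change ± SE (horizontal axes) of the members that passed the expression filter between the 2 wild type lines (left) and between the 2 Nox4-/- lines (right), with roles by colour and filled points for an FDR under 0.01. On the left 27 filled points lie to the right of 0 and 1 to the left, against 20.4% and 19.4% of genes. Since 12 members passed the filter only through WT#20D-17, nothing is read from that number. On the right 3 points are filled, and Dkk1, with 0 counts in both Nox4-/- lines, is not drawn.

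The second question of the design is how the members change as the EBs differentiate. With 4 lines as repeats of each day, 7 of 39 members tested (17.9%) changed over days, near the background of 18% of genes. They were the ligands Wnt2, Wnt7b, Wnt9a and Wnt11, the receptors Fzd3 and Fzd10, and Tcf7. Between days 0 and 14, 4 members were higher (the same ligands) and 4 lower (Fzd3, Fzd9, Fzd10 and Tcf7). These were 20.5% of those tested, against a background of 28.8% (14.8% higher and 14% lower). Of the 39, 12 passed the filter only through WT#20D-17 and were low in the other lines. Nothing is therefore read from the shares of the 39 beside the background. Without WT#20D-17, 27 members were tested and 6 (22.2%) changed over days, against 23.4% of genes. They were Wnt2, Wnt9a, Wnt11, Fzd3, Fzd7 and Fzd10. Between days 0 and 14, 12 of the 27 (44.4%) then passed, 6 in each direction, against 34.3% (18.4% higher and 15.9% lower). Single steps of the course gave 0 members each with edgeR, for days 0 to 3, 3 to 7 and 7 to 14, with 10, 6 and 10 members at an unadjusted p under 0.05 and backgrounds of 0.163%, 0% and 0.0112% (for the last, 0.00561% higher and 0.00561% lower). Without WT#20D-17 these steps also gave 0 members each, with 8, 7 and 9 at an unadjusted p under 0.05. The backgrounds were then 0.523% for days 0 to 3 (0.511% higher, 0.0118% lower), 0.259% for days 3 to 7 (0.253% higher, 0.00588% lower) and 0.123% for days 7 to 14 (0.0411% higher, 0.0823% lower).

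Wnt2, a ligand of heart, vessel and lung mesenchyme, rose in all lines. It went from 0.228 to 3.97, 5.11, 13.3 and 17.8 CPM in WT#1-4 and from 0 to 1.34, 2.83, 7.19 and 3.15 CPM in WT#20D-17. Nox4-/- #5-8 went from 0.12 to 0.294, 0.841, 0.915 and 2.97 CPM, and Nox4-/- #5-23 from 0.112 to 0.504, 2.08, 1.86 and 3.97 CPM. Day 14 was above day 0 in all 4 lines, by 5.69 ± 0.67 log2 units in the fit (SE; FDR 9.7e-06). WT#1-4 was the highest line on every day. The study, with other tests and thresholds, lists Wnt2 among genes that changed with time in wild type but not in Nox4-/- cells. In the exact test against WT#1-4, Wnt2 had a log2 fold change of -2.56 in Nox4-/- cells and did not pass (FDR 0.0116).

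Wnt9a, which acts in joints and in the niche of blood stem cells, was highest on day 14 in 3 lines. WT#1-4 was at 0.342, 2.42, 2.16, 9.9 and 32.2 CPM, Nox4-/- #5-8 at 0.439, 0.461, 2.06, 2.31 and 6.4 CPM, and Nox4-/- #5-23 at 0.0372, 0.596, 2.87, 4.66 and 12.4 CPM. WT#20D-17 had already reached 14.5 CPM on day 3, from 3.4 on day 0, and stayed between 13.3 and 17.6 CPM. The fitted rise between days 0 and 14 was 4.91 ± 0.78 log2 units (SE; FDR 0.000129).

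Wnt11, a ligand of cell movement at gastrulation and of heart development, rose late in the same lines. It was at 0.152, 0.795, 0.522, 3.83 and 10.7 CPM in WT#1-4, 0.639, 0.587, 0.688, 1.2 and 8.16 CPM in Nox4-/- #5-8, and 0.409, 0.0458, 1.66, 3.2 and 11.6 CPM in Nox4-/- #5-23. On day 14 these 3 lines lay close together, while WT#20D-17 was above them. In WT#20D-17 it was at 2.83, 13.8, 23.5, 23.3 and 42 CPM. The fitted rise was 4.60 ± 0.73 log2 units (SE; FDR 0.000128). Wnt7b passed as well (FDR 3.52e-05). It had at most 3 counts in any library of Nox4-/- #5-8 and at most 0.189 CPM in Nox4-/- #5-23. Its rise was therefore seen in the wild type lines, and in CPM it was largest in WT#20D-17. Without that line the rise also passed, at 6.27 ± 1.58 log2 units (SE, FDR 0.00698), although WT#1-4 reached at most 1.52 CPM.

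The receptors that changed fell. Fzd3, a receptor of axon guidance and planar polarity, declined from 17, 20.7, 17.5 and 13.4 to 5.9 CPM in WT#1-4 and from 41.0, 32.8, 24.2 and 29.4 to 11.8 CPM in WT#20D-17. In Nox4-/- #5-8 the values were 28.3, 21.9, 18.9, 13.7 and 6.49 CPM and in Nox4-/- #5-23 they were 28.5, 25.3, 22.7, 15.7 and 13.5 CPM, so day 14 was the lowest library of every line. The fitted change was -1.61 ± 0.20 log2 units (SE; FDR 1.8e-05). Fzd10 fell in Nox4-/- #5-23 from 30.1 to 18.3, 11.5, 7.59 and 2.99 CPM and in Nox4-/- #5-8 from 9.1 to 3.48, 1.53, 1.06 and 0.232 CPM. In WT#20D-17 it was at 12.1, 16.2, 7.63, 6.39 and 0.525 CPM, whereas WT#1-4 never exceeded 0.342 CPM (-4.13 ± 0.52 log2 units over all lines, SE; FDR 1.68e-05).

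Several of these calls depended on WT#20D-17. Wnt7b and Tcf7 passed the test over days with all lines and not without it (FDRs of 0.0477 and 0.0222). Between days 0 and 14, however, both still passed without WT#20D-17. Wnt7b was then at 6.27 ± 1.58 (FDR 0.00698) and Tcf7 at -1.40 ± 0.36 log2 units (SE, FDR 0.00641). For Fzd7, with all lines the change from day 0 to day 14 was 1.48 ± 0.43 log2 units (SE; FDR 0.0113), and without WT#20D-17 it was 2.23 ± 0.35 (FDR 0.000191). Sfrp1 behaved alike, at 0.84 ± 0.43 (FDR 0.125) with all lines and 1.48 ± 0.36 (FDR 0.00417) without WT#20D-17, and so did the lower values of Wnt5a (-1.11 ± 0.28, FDR 0.00529) and Fzd4 (-1.06 ± 0.25, FDR 0.00334), which did not pass with all lines (FDRs of 0.317 and 0.344). The target genes other than Tcf7 did not pass in the full fit. Axin2 was at -0.30 ± 0.49 (FDR 0.648), Sp5 at -0.18 ± 1.19 (FDR 0.917), Lef1 at -0.72 ± 0.57 (FDR 0.323) and Nkd1 at -0.81 ± 0.67 (FDR 0.346). Axin2, Sp5 and Nkd1 passed the filter only through WT#20D-17 and were low in the other lines. Their values therefore rest mainly on that line and are no test over all lines.

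**Figure D4:**
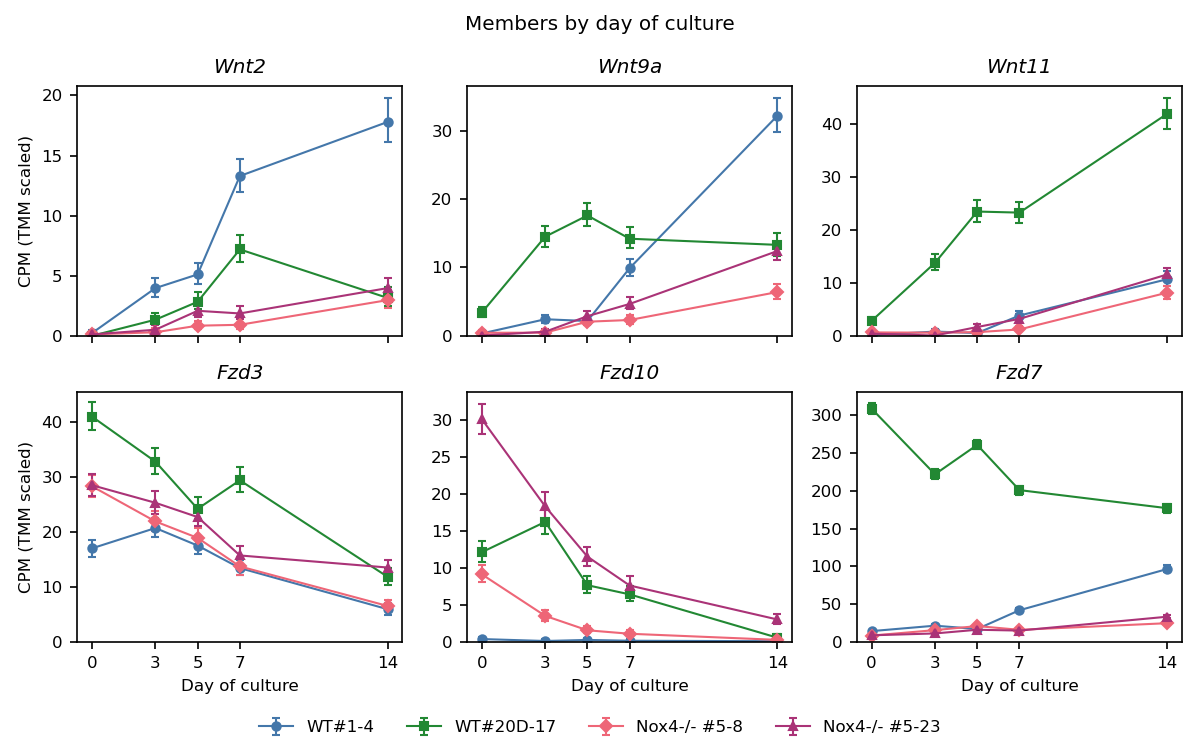
CPM (vertical axes, linear) of 3 ligands and 3 receptors by day of culture in the 4 lines, with 1 point per library and bars for the 95% Wilson counting interval. Wnt2, Wnt9a and Wnt11 are higher on day 14 than on day 0 in all lines, Fzd3 and Fzd10 are lower, and Fzd7 falls in WT#20D-17 (309 to 177 CPM) while it rises in the other 3 lines.

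The third question is whether the genotypes differ. With the line as the unit, 2 against 2 and counts summed over days, 0 of 36 members passed with edgeR's quasi-likelihood test, as did 0% of genes, with 12 members at an unadjusted p under 0.05. DESeq2 called 11 of 42 members on the same sums, all lower in the Nox4-/- lines, against 2.33% of genes in either direction. The wild type sums of members such as Wnt4 and Dkk1 came mostly from WT#20D-17. Wnt4 had 2561 counts there and 42 in WT#1-4, and Dkk1 had 2310 and 35. Genotype therefore cannot be told apart from that line in these calls. A time course that differs by genotype was found for 0 of 39 members with edgeR and 0 with DESeq2, with 0 at an unadjusted p under 0.05 and a background of 0.0112%. In simulated data with a genotype change on day 14 only, the edgeR test recovered 0 of 200 genes with a log2 change of 1. It recovered 55 of 200 with a change of 2 and 161 of 200 with a change of 4. Its 0 members therefore do not show that the courses are alike.

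The study used an exact test with days pooled. Run here on WT#1-4 against the Nox4-/- lines, this type of test called 9 of the 42 members (21.4%). The threshold was an FDR under 0.01, and the background was 5.62% of 33860 genes. Of the 9 members, 3 were higher in Nox4-/- cells (background 1.65%) and 6 lower (3.97%). The median log2 fold change was -0.64 over the members and 0 over all genes. Since the 5 wild type libraries come from a single clone, genotype and line cannot be told apart in this test.

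Of the 3 higher members, Wnt5a had a log2 fold change of 1.87 (FDR 3.15e-06), Fzd6, a receptor of planar polarity, 0.99 (FDR 0.00654) and Fzd10 5.67 (FDR 5.14e-06). Fzd6 was at 9.15, 12.0, 17.3, 12.7 and 11.4 CPM in WT#1-4, 17.7, 22.5, 17.1, 21.1 and 13.7 CPM in Nox4-/- #5-8, and 22.3, 36.6, 31.4, 37.1 and 28.7 CPM in Nox4-/- #5-23. Only the second Nox4-/- line lay above all WT#1-4 libraries. WT#20D-17 held 17.9, 18.3, 13.6, 23.1 and 7.87 CPM, close to Nox4-/- #5-8. None of the 3 was higher in the Nox4-/- lines than in WT#20D-17 at this threshold, where the log2 fold changes were -1.51 (FDR 0.0149) for Wnt5a, 0.62 (FDR 0.107) for Fzd6 and 0 (FDR 1) for Fzd10.

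The 6 lower members were the ligands Wnt4 and Wnt7b, the receptor Fzd4 and the inhibitors Dkk1, Dkk2 and Dkk3. For Fzd4 the log2 fold change was -1.25 (FDR 5.41e-05), and for Dkk3 -2.80 (FDR 6.12e-08). The other 4 rest on few reads, since WT#1-4 itself held at most 0.683 CPM of Wnt4, 1.52 of Wnt7b, 0.493 of Dkk1 and 0.532 of Dkk2. From the summed counts, WT#1-4 exceeded the Nox4-/- lines 8.17-fold in Wnt4 (exact 95% counting interval 4.03 to 18.3) and 7.78-fold in Dkk2 (3.82 to 17.4). Dkk1 had 35 counts in WT#1-4 and 0 in the Nox4-/- lines (FDR 7.2e-11). Of the 9 members, Fzd10 differed between the Nox4-/- lines themselves.

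**Figure D5:**
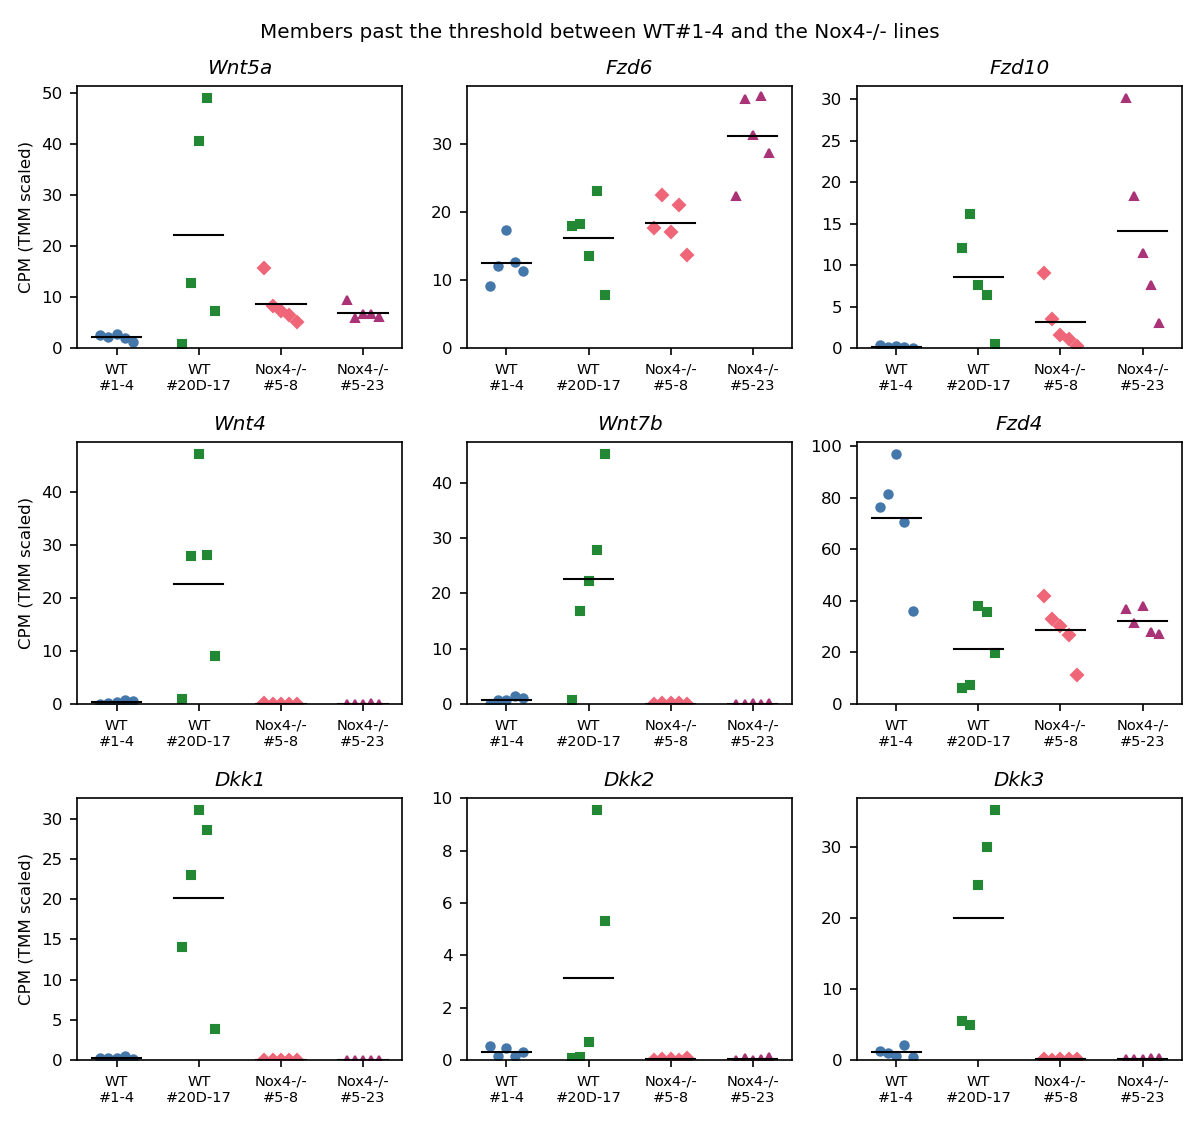
CPM (vertical axes, linear) of the 9 members past the threshold between WT#1-4 and the Nox4-/- lines, with 1 point per library, days in order from left to right within a line, and a bar at the mean of the 5 libraries. The mean of WT#20D-17 lies far above those of WT#1-4 and the Nox4-/- lines in Wnt4, Wnt7b, Dkk1 and Dkk3, and below that of WT#1-4 in Fzd4. In Wnt7b the day 0 library of WT#20D-17 (0.738 CPM) lies within the range of WT#1-4 (0 to 1.52 CPM).

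Against WT#20D-17, with the same Nox4-/- libraries, the exact test called 28 of 42 members (66.7%), all lower in the Nox4-/- lines, against 25.8% of genes in either direction, 16% lower and 9.83% higher. By role these were 13 of 17 ligands, 4 of 12 receptors (Fzd2, Fzd7, Fzd8 and Lrp5), 5 of 6 inhibitors, 4 of 5 targets, and Rspo3 with Lgr5. The median log2 fold change was -3.29 over the members and -0.02 over all genes. Wnt4 was 554-fold higher in WT#20D-17 by summed counts (exact 95% counting interval 301 to 1156), Sfrp2 191-fold (87 to 522) and Wnt10a 83.4-fold (39.9 to 209). Axin2 had a log2 fold change of -6.90 (FDR 1.53e-54) against WT#20D-17 and of -1.29 (FDR 0.0581) against WT#1-4. Tcf7 had -5.31 (FDR 2.45e-28) and -0.50 (FDR 0.702), and Nkd1 -5.74 (FDR 2.16e-24) and -0.42 (FDR 0.91). The 2 comparisons share the Nox4-/- libraries, and the difference between their wild type lines is the one tested above.

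The 10 Nox4-/- libraries lay below all 10 wild type libraries for 2 members, Dkk1 and Dkk3, or 4.76% of the 42, against 0.856% of the genes with a nonzero count, and above them for 0 members, against 0.591%. In Dkk1 the lowest wild type library was WT#1-4 on day 14, with 3 counts, a value at the floor.

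Beyond the 42 members, 61 further genes of the pathway were examined. Of 54 tested, 22 were higher and 8 lower in WT#20D-17 than in WT#1-4, against 20.4% and 19.4% of genes. Some of the 22, such as Cdx1 and Wnt9b, had at most 2 counts in each library of the other lines. They passed the filter only through WT#20D-17, so nothing is read from that number. Between the Nox4-/- lines 1 (Lgr4) was higher and 1 (Wls) lower in Nox4-/- #5-23, a share near the background of 3.63%. β-catenin itself, Ctnnb1, was at 633 to 1137 CPM in the 20 libraries. Among antagonists, Frzb reached 59.4 CPM and Cer1 22.1 CPM in WT#20D-17, against at most 0.266 and 0.607 CPM in the others. Sost went the opposite way, at 1.48 to 55.5 CPM in the 3 other lines and at most 0.4 CPM in WT#20D-17. Apcdd1 did so too, with 52.7 to 858 CPM in the 3 lines and 6.15 to 65.4 CPM in WT#20D-17.

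Over the days, 14 of the 54 changed (background 18%), and 13 were higher and 4 lower on day 14 than on day 0, near the 28.8% of genes that differed in either direction (14.8% higher and 14% lower). Of 10 antagonists tested, 5 rose by 1.27 to 4.46 log2 units, namely Dkkl1, Wif1, Sost, Kremen1 and Apcdd1, although Sost stayed at or under 0.4 CPM in WT#20D-17. Porcn and Wls, which lipidate Wnts and carry them to the surface, rose by 1.78 (FDR 0.00598) and 2.03 log2 units (FDR 0.00226). For Porcn this came from the Nox4-/- lines, from 34.5 to 265 CPM in Nox4-/- #5-8 and from 19.8 to 232 CPM in Nox4-/- #5-23, while WT#1-4 was at 128 and 132 CPM and WT#20D-17 at 20.2 and 28.6 CPM on days 0 and 14. Of the ubiquitin ligases that remove Frizzled receptors, Rnf43 rose by 4.68 (FDR 0.00043) while Znrf3 changed by -1.22 log2 units (FDR 0.000506).

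Between WT#1-4 and the Nox4-/- lines, 6 of the 61 passed the exact test, against 5.62% of genes, all lower in Nox4-/- cells (background 3.97%), among them Wls and the planar polarity gene Vangl2. Wls, without which Wnt ligands are not secreted, was at 72.8, 73.2, 75.1, 93.4 and 161 CPM in WT#1-4 and at 27.9, 233, 393, 343 and 197 CPM in WT#20D-17. In Nox4-/- #5-8 it was at 5.75, 10.2, 14, 18.2 and 19.6 CPM and in Nox4-/- #5-23 at 1, 2.25, 2.65, 4.84 and 9.04 CPM, so that all 10 libraries were below every wild type library. The log2 fold change was -3.44 (FDR 1.01e-09) against WT#1-4 and -4.77 (FDR 2.32e-14) against WT#20D-17. With the line as the unit it was -4.23 and did not pass (FDR 0.604), and fitted in the line plus day model, the Nox4-/- lines differed by -1.90 log2 units from each other (FDR 0.00918). Wls was singled out here after its values had been seen.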

How the data were processed

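Poly(A) RNA of 20 libraries, 4 lines on 5 days, was sequenced as stranded paired reads. The authors trimmed and aligned them with STAR 2.6.0c and counted them with RSEM 1.3.1 on mm10. RSEM expected counts were deposited by the authors for 55573 genes, with no other normalization, and were rounded here to whole numbers. Whether RSEM used the strand is not given in the sources used here, so reads of antisense neighbours may be included.

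CPM used TMM factors. Genes passing filterByExpr by day (17827) entered edgeR 4.0.16 quasi-likelihood fits in R 4.3.3 with line plus day, genotype by day, or counts summed per line. The edgeR exact test, the type of test the study used, was run with days pooled on all 33860 genes with a nonzero count. The threshold was a Benjamini-Hochberg FDR under 0.01 over all genes tested. Fits were tested on simulated data. Alternatives were other scalings, no filter, FDR 0.05, DESeq2 1.42.0, no line term and each line left out. Counts of libraries without overlap over all nonzero genes were chosen after seeing the data. Intervals and the floor of 3 counts cover counting error only.

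Lines pair the days because the same clone was sampled throughout. The difference between lines of a genotype correlated between days over 17827 genes with a mean r of 0.778 (wild type) and 0.599 (Nox4-/-). By the rule for named genes, every library is given for members past a day or genotype test that reach 5 CPM, but lines under 5 CPM are mostly given as ranges. Wnt1 and Wnt2 were named because the study names them. The members and lists were chosen with earlier results of these data known. Gene positions and lengths came from GENCODE M21 (55480 identifiers found) and promoters from RefSeq. Nothing says whether libraries of different lines came from separate cultures on separate dates, so p-values measure the spread between these libraries.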

Additional observations from a re-analysis of the deposited data

Results flagged for a closer look

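In 40 sets of 4 lines on 1 day, covering 8 genes, the line farthest from the others was tested with Dixon's criterion. The nominal rate of about 1 in 20 holds for independent sets. These sets shared the same 4 lines, and their genes were those that passed the day tests. No excess over chance is therefore read from their number. Such a line was found in 10 sets. WT#1-4 was high in Wnt2 on day 14 (17.8 CPM). WT#20D-17 was high in the other 9, namely Wnt7b on days 0, 3 and 5 (0.738, 16.9 and 22.3 CPM), Wnt9a on day 5 (17.6 CPM) and Tcf7 on days 0, 3, 5, 7 and 14 (73.4, 46.6, 41, 22.6 and 8.5 CPM).

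For 3 ligands the day 14 value differed from day 0 in opposite directions in the 2 genotypes, on the log2(CPM + 1) scale and in the order WT#1-4, WT#20D-17, Nox4-/- #5-8, Nox4-/- #5-23. Wnt4 differed by 0.63, 2.35, -0.1 and -0.05, and Wnt6 by 0.63, 2.54, -0.06 and -0.05, both at or under 4 counts in the Nox4-/- libraries. Wnt5b differed by -1.2, -1.67, 1.07 and 0.07. The genotype by day test of edgeR did not pass for any of them (FDR 0.652 for Wnt4, 0.715 for Wnt6 and 0.774 for Wnt5b).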

How the results depend on the processing

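The share of all genes called under the same setting is given in parentheses. An FDR of 0.05 gave 11 members changed over days (29.6%), 13 changed between days 0 and 14 (43.1%), and 5 differing between the Nox4-/- lines (8.52%), for which DESeq2 also gave 5 (4.1%). Without the line term (no replicate block), 0 (3.61%) and 2 members (9.85%) passed the day tests. With the line as the unit DESeq2 gave 11 (2.33%). The exact test on WT#1-4 gave 19 (12.1%) when both wild type lines entered, where Wnt5a reversed to a log2 fold change of -0.64 (FDR 0.592). With the day as a replicate block, a quasi-likelihood fit gave 13 members for WT#1-4 (8.81%) and 26 for WT#20D-17 (26.8%). Leaving out 1 line at a time gave 3 to 6 members over days (3.44% to 23.4%), 7 to 12 between days 0 and 14 (14.1% to 34.3%), 27 to 27 between wild type lines (33.5% to 35.9%), 3 to 5 between Nox4-/- lines (2.55% to 8.04%), 0 to 3 with the line as the unit (0% to 0.794%) and 0 to 1 for the genotype by day term (0% to 3.39%). Leaving out a Nox4-/- line gave 7 to 10 in the exact test with WT#1-4 (4.42% to 5.89%) and 24 to 28 with WT#20D-17 (20.2% to 21.8%). Without WT#1-4, Wnt4, Wnt7b and Fzd7 passed with the line as the unit and Wnt5a the genotype by day term. The day test called Wnt2, Wnt7b and Wnt11 without Nox4-/- #5-8, those with Fzd3 and Fzd10 without Nox4-/- #5-23, and Wnt2, Fzd3, Fzd10, Tcf7 and Rspo3 without WT#1-4. The causes were not tested. Depth limits members near 3 counts.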
